A study of Mus musculus with 9 samples.

Results

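Genes of 10 peptide hormones and neuropeptides were followed across islets of Langerhans, the hormone-secreting cell clusters of the pancreas, from mice with 0, 1 or 2 copies of the db mutation of the leptin receptor (WT, db/+ and db/db). They were taken by symbol from a table of 52459 gene symbols, and all 10 were found: Cck, Gast, Ghrl, Sct, Nts, Vip, Npy, Tac1, Gal and Penk. They are gut and neural hormones outside the usual islet set and were chosen by their levels in these same WT, db/+ and db/db libraries. Their differences between groups are therefore described with values and standard errors, and no p-value is given for them. Counts of these genes past the threshold of the fit over all genes (adjusted p under 0.05) are set beside the share of all genes, as a description only. Each group had 3 libraries of total RNA depleted of ribosomal RNA, from mice of 12 weeks of age, with no treatment named. All 9 libraries carry the same strain label. The genotype labels are wild type (+/+) for WT, heterozygous (+/-) for db/+, and db/db (-/-) for db/db. Mice homozygous for the receptor mutation become obese and diabetic. The labels do not say whether a library came from 1 animal or from pooled islets, so each p-value reflects how these libraries vary, which may be technical.

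Peptide hormones are made as larger precursors that are cut by convertases, trimmed by carboxypeptidases and, for many, amidated at the C-terminus before storage in dense-core granules. Cholecystokinin and gastrin are related peptides of gut endocrine cells that share their amidated end and a receptor, and gastrin is also made in the fetal pancreas. Ghrelin is made in the stomach and in rare epsilon cells of islets, while VIP, galanin, neuropeptide Y and tachykinins are found in nerve fibres that reach the islet, and neuropeptide Y also in some islet endocrine cells.

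Total counts were 8860024 to 11734886 per library, and 16826 genes passed the filter on low counts. Levels are given as CPM, the count scaled to the normalised library size, and 3 counts, the limit that a count of 0 allows, equal 0.238 to 0.412 CPM by library. Such limits cover counting error only. The tissue label held, since 10 beta cell markers summed to 83874 to 125208 CPM. Lepr, the mutated gene, was at 1.52 to 9.47 CPM in all libraries, and its whole-gene count does not check the genotype, since the mutation alters splicing. The libraries WT 1, WT 3 and db/db 1 held both the X-inactivation transcript Xist and counts of 4 Y-linked genes, the db/+ libraries and WT 2 held Y-linked counts with at most 0.722 CPM of Xist, while Xist came with at most 1.11 CPM of Y-linked counts in db/db 2 and db/db 3. Xist beside Y-linked counts in WT 1, WT 3 and db/db 1 points to RNA of more than 1 animal in these libraries, which the labels do not state. Sex and genotype cannot be told apart in db/db against db/+. The contrasts with WT were unbalanced in sex as well. Every WT library held 219 to 343 CPM of Y-linked counts, and WT 1 and WT 3 held 565 and 596 CPM of Xist. Lars2 and Gm42418 together took 17.9% of counts in db/db 1, 13.3% in db/db 2 and 0.0558% in db/db 3. They took 1.89 to 2.58% in the WT libraries and 0.0220 to 0.0237% in the db/+ libraries. Sample titles start with G in the db/+ libraries and in WT 1 and WT 2, and with H in the db/db libraries and WT 3, and what the letter stands for is not given in the sources used here.

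Cck and Gast were near the counting limit in WT and db/+ and were counted readily in every db/db library. Ghrl was scarce and highest in db/db, and Npy was lowest there. Vip, Tac1, Gal and Penk overlapped between the groups, and Sct and Nts were at or under the counting limit. Of the 10 genes, 7 passed the low-count filter and were fitted, while Nts, Sct and Penk were not. A gene could pass through the group in which it was high, so the fitted genes do not stand for all 10. In db/db against WT, 3 of the 7 (Cck, Gast and Ghrl) were past the threshold upward, where 21.8% of all tested genes were, and 1 (Npy) downward, where 19.9% were. Against db/+, the counts were again 3 and 1, beside 20.6% and 19.7% of all genes. In db/+ against WT, 0 of the 7 were past the threshold by edgeR, 0 had an unadjusted p under 0.05, and 0 were called by DESeq2 or limma-voom, beside 1.43% of all genes by edgeR (0.606% higher and 0.82% lower). The 2 db/db contrasts share the db/db libraries and are set side by side, not taken as independent. With the title letter as a term, 3 genes (Cck, Gast and Npy) were past the threshold against WT and 0 against db/+. Ghrl was also not past it against WT by DESeq2, or with WT 1, WT 3 or db/db 2 left out. The choice of the genes used these contrasts, so nothing is read from any of these counts. With library totals as the scale, the median log2 fold change of all genes was -0.22 in each db/db contrast, and the split of all calls went from 3670 higher and 3348 lower to 2176 and 5317 against WT. Against db/+ it went from 3459 and 3314 to 2011 and 5265.

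**Figure D1:**
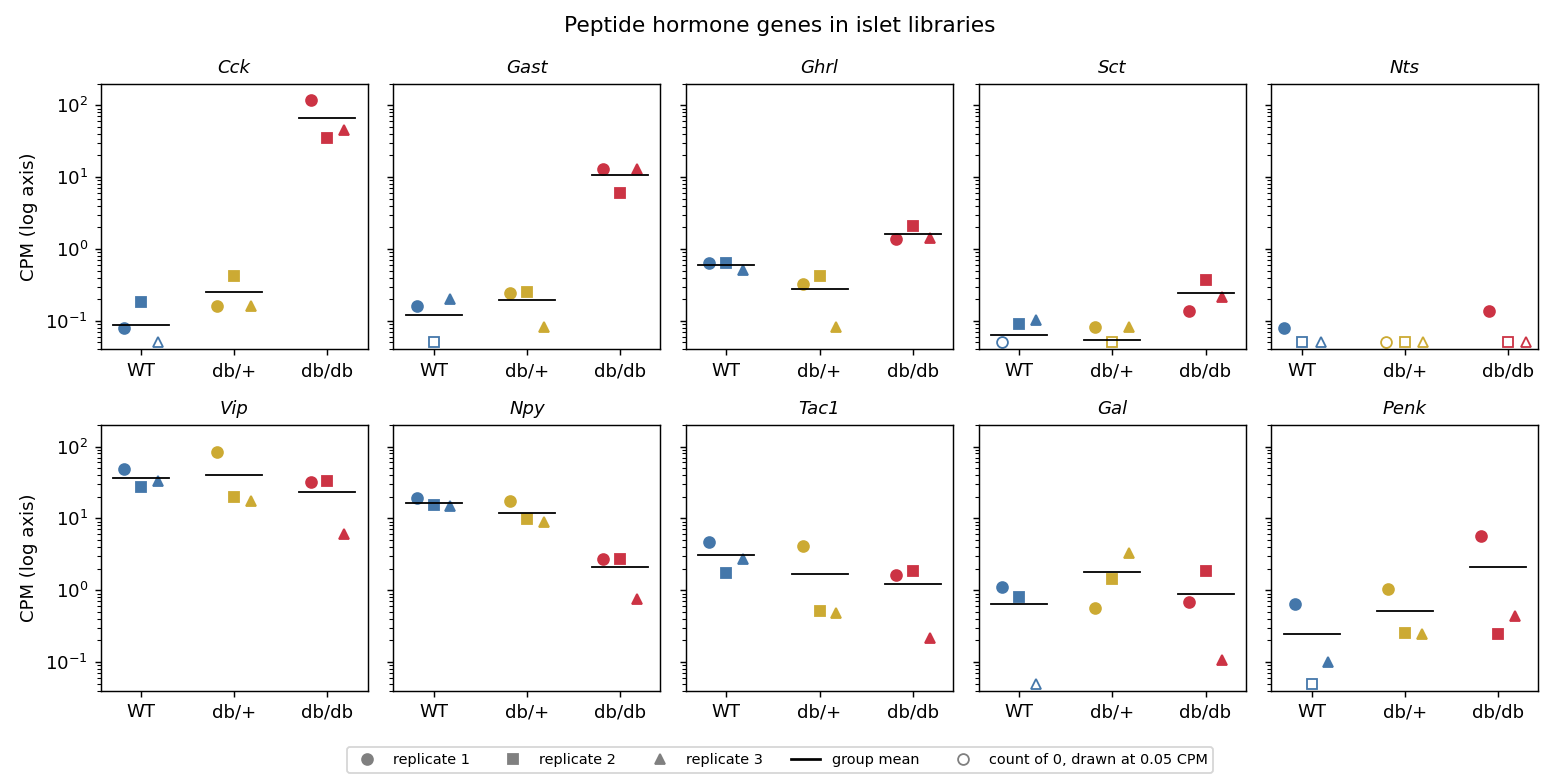
Level of each of the 10 peptide genes in the 9 libraries, in CPM on a log axis, with the group mean as a bar and counts of 0 as open symbols at 0.05 CPM. Cck and Gast lie above 5 CPM in every db/db library and below 0.5 CPM elsewhere, and Npy lies below 3 CPM in db/db and above 8 CPM elsewhere.

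The word ectopic did not hold for the whole set. Vip and Npy were present in every WT library, at 27.7 to 49.4 and 14.7 to 19.1 CPM, and Vip lay above 70.9% of tested genes in WT by its mean. Cck and Gast were at or below the 3-count limit in the WT libraries, and above 0.113% and 0.172% of tested genes by their means. Cck and Gast passed the low-count filter through db/db, so their place near the bottom of the tested genes in WT follows from the filter. Of all symbols, 29854 had a count and 16826 were tested, and the ranks leave out the rest. In db/db the mean of Cck lay above 83.0% of tested genes and that of Gast above 43.6%. Per kb of exon, Npy (29.1 CPM per kb) and Vip (24.1) had the highest means of the set in WT, with overlapping ranges of 26.0 to 33.8 and 18.2 to 32.3. The same scale put Cck first in db/db, at a mean of 78.5 CPM per kb and a range of 41.9 to 140.0. Gast followed at 23.0 (12.9 to 28.3) and Vip at 15.4 (3.95 to 21.4), 2 ranges that overlapped each other.

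The promoters of Cck and Gast, the pair with the largest differences upward in db/db, and of Npy, which was lower in all db/db libraries, are shown for the 250 bases before the gene start, from RefSeq on GRCm38.p6. Capitals mark any of 6 motifs searched on either strand: TGACG (the core of the cAMP response element), TGCGTCA, TGACGTCA (the full element), CACGTG (an E-box), TATAAA and GGGCGG (a GC box).
Cck, chr9:121495695-121495944, minus strand: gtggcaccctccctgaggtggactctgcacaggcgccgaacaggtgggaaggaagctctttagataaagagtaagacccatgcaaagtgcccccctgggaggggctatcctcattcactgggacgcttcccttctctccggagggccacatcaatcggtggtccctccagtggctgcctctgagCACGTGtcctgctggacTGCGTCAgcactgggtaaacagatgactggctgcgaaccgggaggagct
Gast, chr11:100334157-100334406, plus strand: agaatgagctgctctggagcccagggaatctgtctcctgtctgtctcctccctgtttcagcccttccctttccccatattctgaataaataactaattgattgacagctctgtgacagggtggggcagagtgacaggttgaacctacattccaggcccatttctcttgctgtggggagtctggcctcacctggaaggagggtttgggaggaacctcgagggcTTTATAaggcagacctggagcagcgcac
Npy, chr6:49822460-49822709, plus strand: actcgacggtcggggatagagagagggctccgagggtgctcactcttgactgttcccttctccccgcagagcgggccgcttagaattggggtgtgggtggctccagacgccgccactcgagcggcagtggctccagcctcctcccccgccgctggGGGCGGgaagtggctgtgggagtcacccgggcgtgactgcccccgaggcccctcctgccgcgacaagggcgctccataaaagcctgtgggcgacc
The Cck window held CACGTG from position -66 and TGCGTCA from position -49 relative to the start, and the latter contains TGACG on the opposite strand. The Gast window held TATAAA on the opposite strand from position -28, and the Npy window held GGGCGG from position -95. Of 32851 promoter windows of this length, 1.75% held TGCGTCA, 6.02% CACGTG, 12.4% TATAAA, 32.7% GGGCGG, 17.8% TGACG and 1.55% the full element. The windows of Cck and Gast had none of the 6 motifs in common. That of Tac1 held TGCGTCA and CACGTG as well, from positions -199 and -61. A match describes letters in this window only. A promoter was matched for 9 of the 10 genes, with 4 alternative starts for Ghrl.

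Cck (chromosome 9, 121489824 to 121495694, mm10) encodes cholecystokinin, a hormone of the small intestine and a brain peptide that drives pancreatic enzyme secretion. It had 865, 287 and 421 counts in db/db 1 to 3, while the WT libraries had 1, 2 and 0 and the db/+ libraries 2, 5 and 2. These are 118.7, 35.6 and 45.4 CPM in the db/db libraries, with 0.0793, 0.181 and 0 CPM for WT and 0.162, 0.4219 and 0.163 CPM for db/+. All db/db libraries were above all others, and db/db 1 stood highest. The db/db mean was 66.5 ± 45.4 CPM (SD, n = 3), or 40.5 CPM without db/db 1. The WT libraries together gave 3 counts, so the ratio of db/db to WT is loosely bounded, at 713 with a 95% exact counting interval of 244 to 3463. Against the 9 counts of db/+ the ratio was 259 (136 to 567). The fitted log2 differences were 9.35 ± 0.96 (SE) against WT and 7.999 ± 0.83 against db/+.

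Summed CPM of 16 acinar markers was also highest in db/db 1, at 49321, against 17726 and 18688 in db/db 2 and db/db 3, 6347 to 12022 in WT and 14659 to 33381 in db/+. The library db/+ 3 exceeded db/db 2 and db/db 3 in acinar markers, with Cck at 0.163 CPM. Of these acinar markers, 9 of 16 rose against WT and 2 of 16 against db/+, with 0 lower in each, where 21.8% and 20.6% of all genes were higher. The part of acinar content in the Cck values was not tested. Among markers of gut endocrine cells, Gip had a count of 0 in every library, Tph1 at most 0.203 CPM and Lmx1a at most 0.102 CPM. Pyy and Chga, of the same list, were abundant in every library, at 558 to 821 and 6751 to 8603 CPM. Pyy is also on the list of PP cell markers used here. Of 8 such markers 4 were tested, and 0 passed the edgeR test in either db/db contrast, with 2 and 1 at an unadjusted p under 0.05. Against WT, Fev stood at -1.13 ± 0.48 (edgeR adjusted p = 0.0715), with all db/db libraries below all WT libraries. Neurog3 stood at 0.83 ± 0.35 (edgeR adjusted p = 0.0737), with overlap.

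Gast (chromosome 11, 100334407 to 100336997) encodes gastrin, the hormone of stomach G cells that stimulates acid secretion. The db/db libraries stood at 13.0, 5.95 and 12.8 CPM, WT at 0.159, 0 and 0.203 CPM, and db/+ at 0.243, 0.253 and 0.0816 CPM. They rest on 262 counts over db/db, 4 over WT and 7 over db/+. The db/db libraries were above all others, and unlike for Cck, db/db 1 and db/db 3 were nearly level. The db/db mean was 10.6 ± 4.03 CPM (SD, n = 3). By summed counts, db/db was 89.1 times WT (95% exact counting interval 34.4 to 329) and 55.4 times db/+ (26.5 to 139). Fitted log2 differences were 6.34 ± 0.53 and 5.70 ± 0.49. In WT 3, the 1 WT library with an H title, Cck had 0 counts and Gast 2, and db/+ had no library with an H title. The title letter and the group cannot be told apart in db/db against db/+.

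Ghrl (chromosome 6, 113716119 to 113719911) encodes ghrelin, a hunger hormone of the stomach that epsilon cells of the islet also make. Ghrl was scarce, with 10, 17 and 13 counts in the db/db libraries, 8, 7 and 5 for WT and 4, 5 and 1 for db/+. The levels were 1.37, 2.11 and 1.40 CPM in the db/db libraries, with 0.635, 0.632 and 0.508 CPM for WT and 0.323, 0.4219 and 0.0816 CPM for db/+. The 3 groups did not overlap, with db/db highest and db/+ lowest. The fitted log2 differences were 1.43 ± 0.44 against WT, 2.52 ± 0.49 against db/+ and -1.08 ± 0.54 for db/+ against WT. Mboat4, the enzyme that acylates ghrelin, was at 0.274 CPM or less in all libraries.

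Sct (chromosome 7, 141278329 to 141279174) encodes secretin, a duodenal hormone of bicarbonate secretion. It had 1, 3 and 2 counts in db/db and at most 1 in any other library, which is at or under the 3-count limit throughout, so no fold is given. Nts (chromosome 10, 102481756 to 102490418), the precursor of neurotensin, had 1 count in WT 1, 1 in db/db 1 and 0 in the other 7 libraries. Neither gene could be compared between groups at this depth.

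Npy (chromosome 6, 49822710 to 49829507) encodes neuropeptide Y, a peptide of sympathetic nerves that lowers insulin secretion. Its counts were 20, 22 and 7 in the db/db libraries, 241, 172 and 145 for WT and 214, 117 and 108 for db/+. The levels were 2.74, 2.73 and 0.754 CPM in the db/db libraries, with 19.1, 15.5 and 14.7 CPM for WT and 17.3, 9.87 and 8.81 CPM for db/+. All db/db libraries were below all others, while WT and db/+ overlapped. Group means were 2.07 ± 1.14, 16.5 ± 2.34 and 12.0 ± 4.63 CPM (SD, n = 3) in that order. The log2 differences were -3.03 ± 0.40 against WT and -2.57 ± 0.41 against db/+, and -0.46 ± 0.31 for db/+ against WT.

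The delta cell hormone Sst ranged from 902 to 1159 CPM over the db/db libraries and from 1008 to 1087 CPM over WT and did not pass (0.03 ± 0.11, edgeR adjusted p = 0.825), while against db/+, at 1358 to 1657 CPM, it fell by 0.48 ± 0.11 on the log2 scale (edgeR adjusted p = 0.00356). The PP cell hormone Ppy was at 1379 to 1593 CPM against 1547 to 2156 CPM in WT and did not pass either (-0.35 ± 0.14, edgeR adjusted p = 0.0571). Among the tested neuron markers, Nefh, a neurofilament subunit, fell by 2.15 ± 0.19 on the log2 scale against WT (edgeR adjusted p = 1.64e-06), to 3.02 to 5.71 CPM from a WT range of 19.4 to 25.3. Snap25, of the same list, rose by 0.35 ± 0.08 (edgeR adjusted p = 0.00352). Nefm (-0.07 ± 0.19, edgeR adjusted p = 0.808) and Th (0.28 ± 0.14, edgeR adjusted p = 0.138) did not pass against WT. Against db/+, Th rose by 0.72 ± 0.14 and Snap25 by 0.67 ± 0.08 (edgeR adjusted p = 0.00207 and 2.28e-05). In the same contrast Nefh fell by 2.29 ± 0.19 (edgeR adjusted p = 9.53e-07). Th was at 65.6 to 73.1 CPM in db/db and 40.7 to 43.4 CPM in db/+. Over the list of 14 tested neuron markers, 3 fell and 1 rose against WT, where 19.9% of all genes were lower and 21.8% higher. Against db/+ 5 fell and 2 rose, beside 19.7% and 20.6%, with median log2 fold changes of -0.79 in each contrast, beside 0.0060 and 0.013 over all genes. The part of nerve content in the Npy values was not tested.

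**Figure D2:**
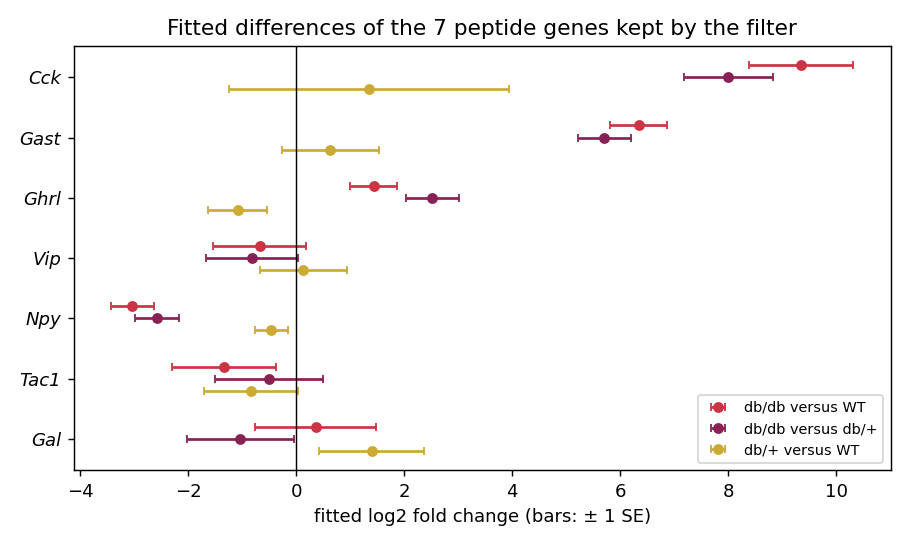
Fitted log2 fold changes of the 7 peptide genes kept by the low-count filter, with bars of 1 SE, for the 3 pairs of groups. The db/db values of Cck lie at 9.35 and 7.999, those of Npy at -3.03 and -2.57, and the bars of Vip, Tac1 and Gal are wide.

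Vip (chromosome 10, 5639193 to 5647617) encodes vasoactive intestinal peptide, a transmitter of parasympathetic and enteric neurons that raises insulin secretion. It stood at 49.4, 27.7 and 33.5 CPM in the WT libraries, with 84.5, 19.9 and 17.3 CPM for db/+ and 31.8, 32.7 and 6.03 CPM for db/db. The groups overlapped, and the spread within db/+ and db/db exceeded the distance between group means of 36.9, 40.6 and 23.5 CPM. The fitted log2 difference was -0.68 ± 0.85 against WT and -0.81 ± 0.85 against db/+. Without db/+ 1, which held 1045 of the 1493 db/+ counts, the latter became 0.31.

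Tac1 (chromosome 6, 7555061 to 7562978), the precursor of substance P and neurokinin A of sensory nerves, was low. It stood at 4.68, 1.72 and 2.74 CPM in the WT libraries, with 4.12, 0.506 and 0.489 CPM for db/+ and 1.65, 1.86 and 0.216 CPM for db/db. As with Vip, db/+ 1 was the highest of db/+ and db/db 3 the lowest library of all. The log2 differences were -1.34 ± 0.96 against WT and -0.51 ± 1.004 against db/+. The latter was 1.25 without db/+ 1.

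Gal (chromosome 19, 3409915 to 3414544) encodes galanin, a sympathetic peptide of islets that lowers insulin secretion. It had 14, 9 and 0 counts in the WT libraries, 7, 17 and 41 for db/+ and 5, 15 and 1 for db/db. The groups overlapped, with WT 3 at 0 and db/+ 3 highest at 3.34 CPM. The log2 differences of 0.36 ± 1.12 against WT and -1.03 ± 0.99 against db/+ lay within about their SE. The first of these was -0.85 without db/db 2 and -0.16 without WT 3.

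Penk (chromosome 4, 4133536 to 4138815) encodes proenkephalin, the precursor of the enkephalin opioids. It had 41, 2 and 4 counts in the db/db libraries, 8, 0 and 1 for WT and 13, 3 and 3 for db/+. The db/db value thus rested on db/db 1, at 5.63 CPM, and the mean of 2.10 CPM became 0.339 CPM without it. By summed counts db/db was 7.10 times WT (95% exact counting interval 3.44 to 16.5), an interval that covers counting error and not the spread between libraries. The library db/db 1 also held the highest summed CPM of 12 stellate cell, fibroblast and pericyte markers, at 2092, against 784 and 1324 in the other db/db libraries and 242 to 374 in WT and db/+. Of these 12 markers 8 rose against WT and 7 against db/+, with 0 lower, where 21.8% and 20.6% of all genes were higher. Summed markers of duct (1760 CPM), endothelium (869) and macrophages (240) were also highest in db/db 1. In WT and db/+ the highest Penk levels, 0.635 CPM in WT 1 and 1.05 CPM in db/+ 1, fell in the libraries with the highest stellate, fibroblast and pericyte sums within their group, at 355 and 374. Across groups this order did not hold. The libraries db/db 2 and db/db 3 had higher sums of 784 and 1324 but lower Penk, at 0.248 and 0.431 CPM. The part of these cells in Penk was not tested. In whole islets, fewer cells of a type and less RNA per cell cannot be told apart.

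The summed CPM of 18 neuron markers ran from 363 to 496 over the WT libraries, 357 to 458 over db/+ and 390 to 418 over db/db. Snap25 alone gave 211, 198 and 204 CPM of this sum for db/db 1, 2 and 3, with at most 180 CPM elsewhere. The median log2 fold change over the 14 tested markers was -0.79 in each db/db contrast. A level sum therefore does not show level nerve content, and the median does not show a fall of it. The listed markers did not share 1 pattern. Over the WT and db/+ libraries, Nefh stayed at 19.4 to 26.0 CPM and Elavl4 at 46.9 to 55.5 CPM. Over the same libraries Nefl ran from 1.12 to 13.0 CPM and Prph from 3.18 to 18.03 CPM. The sum was highest in WT 2. That library also held 17.4 CPM of Dbh, the enzyme of noradrenaline synthesis, against at most 0.248 CPM in the other libraries. Vip was lowest of the WT group in WT 2, at 27.7 CPM. In db/+ 1 the neuron sum of 458 was the highest of db/+, with the peripheral neuron filament gene Prph at 18.03 CPM against 5.15 and 3.18 in db/+ 2 and db/+ 3. Schwann cell markers summed to 34.1 CPM in db/+ 1 against 18.4 and 23.9. Vip, Npy, Tac1 and Penk were each highest of the db/+ group in db/+ 1. Gal went the other way, with db/+ 1 lowest at 0.566 CPM against 1.43 and 3.34 CPM in db/+ 2 and db/+ 3. Within WT, Vip, Npy, Tac1, Penk and Gal were each highest in WT 1, the WT library with the lowest neuron sum, at 363 CPM. The part of nerve content in these values was not tested.

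**Figure D3:**
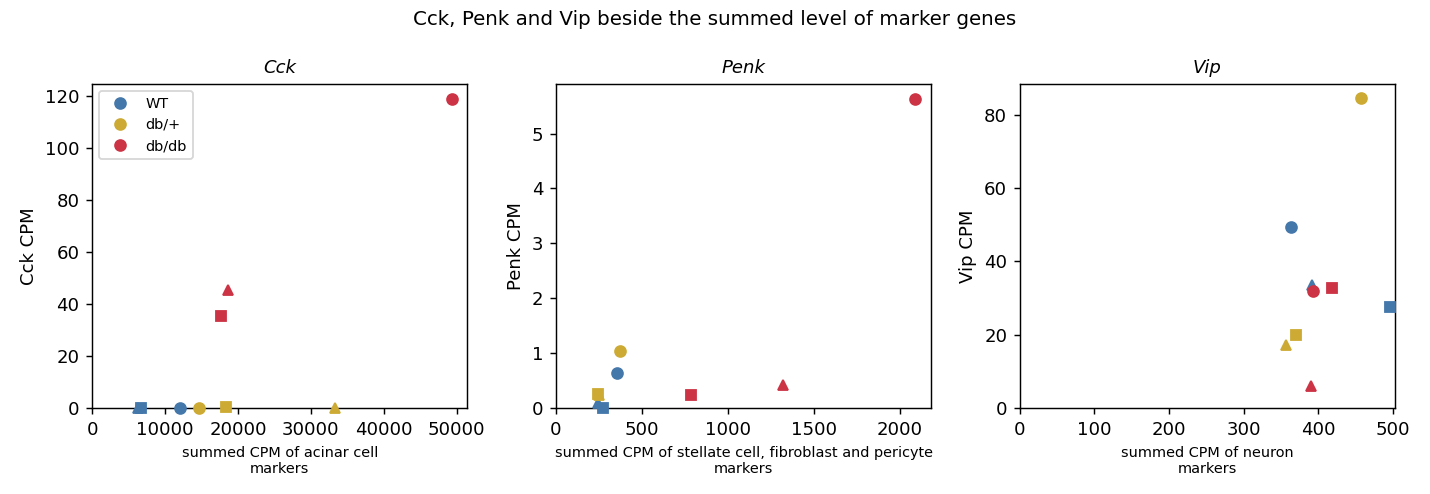
Cck, Penk and Vip in CPM against the summed CPM of acinar, of stellate, fibroblast and pericyte, and of neuron markers, 1 symbol per library with circles, squares and triangles for replicates 1 to 3. The library db/db 1 is highest for Cck and Penk and for the acinar and the stellate sums, while db/+ 3 has an acinar sum of 33381 with Cck at 0.163 CPM. With stellate sums of 784 and 1324, db/db 2 and db/db 3 have Penk at 0.248 and 0.431 CPM. Snap25 alone makes up 198 to 211 CPM of the neuron sum of each db/db library, so a level sum does not show level nerve content. The part of these cell types in the levels of the plotted genes was not tested.

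Likeness of pattern was measured as the mean absolute difference between log2 CPM values centred over the 9 libraries. The genes closest to Cck were Aldh1a3 (0.75), Tm4sf20 (0.76) and Prss3 (0.76), and those closest to Gast were Reg3g (0.48), Serpina7 (0.49) and C1qtnf1 (0.54). Adarb2 (0.40), Slitrk1 (0.40) and Pdzrn4 (0.41) were closest to Npy. For Vip, the nearest were Pirt (0.31), Slc5a7 (0.36) and Cyp2s1 (0.36). The shorter distances of Vip and Npy go with their smaller differences between libraries, and these are descriptions over 9 libraries.

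Receptor genes for these peptides were tested with all other genes. Of 25 receptor genes, 10 passed the low-count filter and 5 had a count of 0 in every library, among them the neurotensin receptor gene Ntsr1 and the neurokinin receptor gene Tacr2. In db/db against WT 2 of the 10 rose, 3 fell and 5 did not pass, where 41.7% of all genes changed. The median log2 fold change of the 10 was 0.10, beside 0.0060 over all genes. Against db/+, 1 rose, 2 fell and 7 did not pass, where 40.3% of all genes changed, with a median of 0.090 beside 0.013. In db/+ against WT, 0 of 10 passed by edgeR, with 1 at an unadjusted p under 0.05 and 0 by DESeq2.

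**Figure D4:**
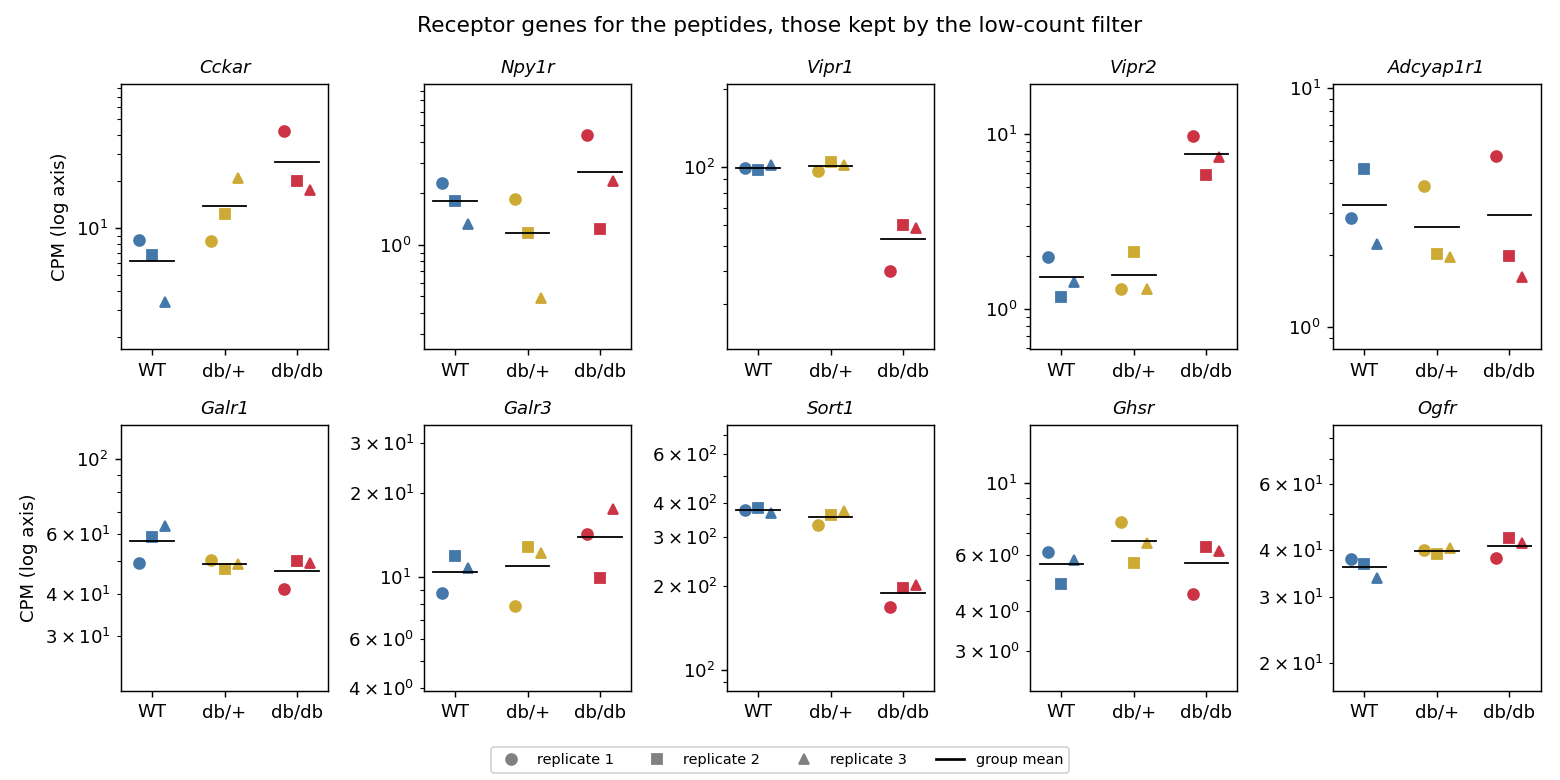
Levels of the 10 receptor genes kept by the low-count filter in the 9 libraries, in CPM on a log axis with a separate range for each gene, and the group mean as a bar. Vipr1 and Sort1 are lower in the 3 db/db libraries than in the other 6, and Vipr2 is higher.

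The receptors for VIP moved in opposite directions. Vipr1 stood at 99.3, 97.5 and 102.0 CPM in the WT libraries, with 96.5, 105 and 102 CPM for db/+ and 40.1, 60.3 and 58.7 CPM for db/db. It fell by 0.90 ± 0.12 on the log2 scale against WT (edgeR adjusted p = 7.51e-05) and by 0.92 ± 0.12 against db/+ (edgeR adjusted p = 6.48e-05). Vipr2 stood at 1.98, 1.17 and 1.42 CPM in the WT libraries, with 1.29, 2.11 and 1.31 CPM for db/+ and 9.74, 5.82 and 7.44 CPM for db/db. It rose by 2.30 ± 0.30 (edgeR adjusted p = 4.41e-05) and 2.28 ± 0.30 (edgeR adjusted p = 4.68e-05). The db/db libraries did not overlap the others for either gene. Adcyap1r1, the receptor of the related peptide PACAP, did not pass (-0.17 ± 0.46 against WT, edgeR adjusted p = 0.793).

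Cckar, the cholecystokinin receptor of acinar cells, stood at 8.41, 6.77 and 3.35 CPM in the WT libraries, with 8.25, 12.3 and 21.1 CPM for db/+ and 42.4, 20.1 and 17.7 CPM for db/db. It was highest in db/db 1, the library with the most acinar marker counts, and its db/+ libraries ranked as their acinar sums did, while db/db 2 and db/db 3 ranked the other way. It rose by 2.08 ± 0.54 against WT (edgeR adjusted p = 0.0205) and did not pass against db/+ (0.93 ± 0.50, edgeR adjusted p = 0.185). The call against WT ended without WT 2 (adjusted p = 0.0571), without WT 3 (adjusted p = 0.0578) and with the title letter as a term (adjusted p = 0.0551). The part of acinar content in Cckar was not tested. Cckbr, the gastrin receptor, was at 0.549 CPM or less and was not tested.

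Sort1, the sorting receptor sortilin that also binds neurotensin, fell from 376 ± 7.10 CPM in WT and 356 ± 20.2 CPM in db/+ to 189 ± 18.4 CPM in db/db (SD, n = 3). Its log2 differences were -0.99 ± 0.08 (edgeR adjusted p = 1.11e-06) and -0.91 ± 0.08 (edgeR adjusted p = 2.35e-06). The galanin receptor gene Galr1 fell slightly against WT (-0.28 ± 0.10, edgeR adjusted p = 0.0408), from 57.1 ± 7.17 to 46.8 ± 4.79 CPM with overlapping groups. That call did not hold by DESeq2 (adjusted p = 0.0544), by limma-voom (adjusted p = 0.0543), in a fit of the 2 groups alone (adjusted p = 0.0658), or with any library other than WT 1, db/+ 1 and db/db 2 left out. Its adjusted p ran from 0.00341 to 0.149 over all alternatives. Galr3, the neuropeptide Y receptor gene Npy1r, the ghrelin receptor gene Ghsr and the enkephalin-binding receptor gene Ogfr did not pass in either db/db contrast. Galr3 did so against WT without db/db 2 (0.61, adjusted p = 0.0440). Npy1r did so against db/+ without db/+ 1 (1.65, adjusted p = 0.0364), without db/db 2 (1.498, adjusted p = 0.0262) and without the low-count filter (1.13, adjusted p = 0.0194).

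A list of 54 other regulatory peptides was set beside the 10 genes. Of these, 21 were tested and 12 had a count of 0 in every library, such as Gip, Nmu, Tac2 and Crh. In db/db against WT 7 of the 21 rose, 6 fell and 8 did not pass, where 41.7% of all genes changed, with a median log2 fold change of 0.34 beside 0.0060 over all genes. Against db/+ 5 rose, 6 fell and 10 did not pass, where 40.3% of all genes changed, with a median of 0.34 beside 0.013.

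Pdyn, which encodes prodynorphin, the other opioid precursor beside Penk, stood at 42.6, 46.4 and 37.3 CPM in the WT libraries, with 67.02, 104 and 53.7 CPM for db/+ and 414, 461 and 396 CPM for db/db. All db/db libraries were above all others. It rose by 3.33 ± 0.23 against WT (edgeR adjusted p = 1.40e-05) and by 2.50 ± 0.22 against db/+ (edgeR adjusted p = 6.08e-05). Nucb2, the precursor of nesfatin, stood at 137, 160 and 156 CPM in the WT libraries, with 195, 184 and 165 CPM for db/+ and 880, 964 and 999 CPM for db/db. It rose by 2.65 ± 0.10 and 2.39 ± 0.10 (edgeR adjusted p = 8.83e-10 and 1.37e-09).

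Edn1, the vasoconstrictor endothelin 1, rose by 1.65 ± 0.35 against WT and Spx, the precursor of spexin, by 1.87 ± 0.44 (edgeR adjusted p = 0.00185 and 0.00370), both at under 3 CPM. Among the fallen genes were Edn3 (-1.32 ± 0.24), Pthlh, which encodes parathyroid hormone-related protein (-1.54 ± 0.41), and Agt, the angiotensin precursor (-0.41 ± 0.11), with edgeR adjusted p of 8.40e-04, 0.00821 and 0.00723. Iapp rose and Ucn3 and Gcg fell in both db/db contrasts, and Sst fell against db/+. With the title letter as a term the calls of Agt and Pthlh against WT and of Edn1, Spx, Pthlh and Sst against db/+ ended, at adjusted p of 0.147, 0.238, 0.0897, 0.126, 0.197 and 0.161. In db/+ against WT, 1 of 21 passed, Sst (0.51 ± 0.11, edgeR adjusted p = 0.0430). That call ended when any library other than db/db 1 was left out, with the title letter as a term and with library totals, and its adjusted p ran from 2.13e-04 to 0.201 over all alternatives.

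Of 20 genes that process peptide precursors, 18 were tested. Against WT 10 rose, 1 fell and 7 did not pass, where 21.8% of all genes were higher and 19.9% lower. Against db/+ 9 rose, 0 fell and 9 did not pass by edgeR, where 20.6% were higher and 19.7% lower, with 12 at an unadjusted p under 0.05. Their median log2 fold changes were 0.42 and 0.39, beside 0.0060 and 0.013 over all genes. With library totals as the scale 5 rose and 2 fell against WT, and 5 rose and 1 fell against db/+. With the title letter as a term 7 rose against WT and 3 against db/+, with 0 lower.

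Pam, the amidating enzyme that makes the active end of cholecystokinin, gastrin, VIP and neuropeptide Y, stood at 1012, 953 and 952 CPM in the WT libraries, with 1135, 1046 and 983 CPM for db/+ and 3588, 3427 and 3666 CPM for db/db. The db/db libraries did not overlap the others, and it rose by 1.87 ± 0.09 against WT (edgeR adjusted p = 4.33e-09) and by 1.76 ± 0.09 against db/+ (edgeR adjusted p = 9.70e-09). Scg5, the chaperone of the convertase PC2, rose by 0.88 ± 0.09, and Qpctl, a glutaminyl cyclase, by 0.65 ± 0.10 against WT (edgeR adjusted p = 3.00e-06 and 1.66e-04). Tpst2, a tyrosine sulfotransferase, the kind of enzyme that sulfates cholecystokinin, rose by 0.35 ± 0.08 (edgeR adjusted p = 0.00317), a call that ended with library totals as the scale (adjusted p = 0.383) and with the title letter (adjusted p = 0.120). Cpe, the carboxypeptidase of secretory granules, rose by 0.51 ± 0.10 (edgeR adjusted p = 9.49e-04), and this ended with library totals (adjusted p = 0.121). Pcsk1, the convertase PC1/3, was the 1 member that fell (-0.42 ± 0.13, edgeR adjusted p = 0.0221), from 1075, 1220 and 1153 CPM in WT to 665, 942 and 961 CPM in db/db. Its call ended without WT 2 (adjusted p = 0.0708), without WT 3 (adjusted p = 0.0529) and with the title letter (adjusted p = 0.128). In db/+ against WT, 0 of 18 passed by edgeR, with 4 at an unadjusted p under 0.05 and 1 by DESeq2.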

How the data were processed

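The deposited table holds raw read counts per gene symbol, without normalisation by the authors as far as its whole-number values show. Per the submitters' processing notes, bcl2fastq 2.20.0.422 and TopHat2 2.0.14 with mm10 were used, and per the labels' protocols libraries were made from Trizol RNA with Ribo-Zero Gold. The sources used here do not give the counting program, annotation or strand setting. Counts of overlapping or antisense genes, and of close copies such as Prss3, may therefore be mixed. The table holds 1 column that matches no sample, which was not used. Replicate numbers follow accession order. The full strain name is not reported here.

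Genes were kept by filterByExpr, scaled by TMM and fitted with a term per group over 9 libraries (edgeR 4.0.16, R 4.3.3, quasi-likelihood F-test, two-sided, robust, Benjamini-Hochberg over 16826 genes, threshold 0.05, 6 residual degrees of freedom, biological coefficient of variation 0.129). Standard errors come from the fold change and F. Pearson correlations of log2 CPM (prior count 0.5) within groups were 0.962 to 0.983. The script was tested on simulated counts. The 10 genes and the lists were chosen with earlier results of these data known. The rule for other named genes takes every tested receptor, the 5 risen and 5 fallen listed genes with the smallest adjusted p in each db/db contrast (3 and 3 for db/+ against WT) and, for members with a group mean of at least 10 CPM, the 3 most alike genes. Marker lists for other cell types of the pancreas were counted the same way. Positions and promoters are RefSeq's, on GRCm38.p6, the assembly of mm10. Exon lengths come from a GENCODE annotation of an older assembly, used for lengths only. Alternatives were DESeq2 1.42.0 size factors or tests, limma-voom (limma 3.58.1), library totals, other filters, the compared groups alone, the title letter as a term, removal of Lars2 and Gm42418 (0.0220 to 17.9% of counts), and each library left out.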

Additional observations from a re-analysis of the deposited data

How the results depend on the processing

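No paired analysis was possible because the labels give no replicate numbers. With the title letter as a term, which rests on WT 3 against WT 1 and WT 2, all changed genes numbered 4425 (db/db against WT), 2033 (db/db against db/+) and 45 (db/+ against WT), the processing genes 7 and 3 in the db/db contrasts, and the other regulatory peptides 6 against db/+ and 0 in db/+ against WT. With library totals as the scale, 7 processing genes changed against WT, and 0 other regulatory peptides in db/+ against WT. Without a low-count filter, 5 receptors changed against db/+, and 768 genes and 1 processing gene in db/+ against WT. DESeq2 gave 633 genes, 2 other regulatory peptides and 1 processing gene in db/+ against WT. With a library left out, 23 (without db/+ 1) to 430 (without db/db 1) genes changed in db/+ against WT, where all libraries gave 240, and 0 to 1 other regulatory peptides. In the db/db contrasts, leaving out a library gave 5774 to 7004 changed genes against WT and 5441 to 6880 against db/+. The causes of these shifts were not tested. Depth limits Sct, Nts and the WT and db/+ levels of Cck and Gast, all near the 3-count limit.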
